A study of Homo sapiens with 18 samples.

Results

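The acRIP peaks described here were listed in both control and NAT10-knockdown PANC-1 cells on genes that the RNA-seq table of the same cells listed at or near 0. They were selected on measured values: a peak of one list had to share at least 1 base of its span, on the same strand, with a peak of the other list, and the mean FPKM (fragments per kilobase of transcript, scaled to the reads of the library) of its gene had to be under 0.1 in both groups. A gene below that limit is called silent, a word for its listed value alone, and a peak that meets the overlap is called recurrent. The rule kept 457 of 16892 peaks of the control list, on 260 genes, and 463 of 15813 peaks of the knockdown list, on 264 genes. Together they named 276 genes, 248 of them in both lists. Because the rule used the overlap and the FPKM, neither is tested below.

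N4-acetylcytidine (ac4C) is a modified cytidine that the acetyltransferase NAT10 places on rRNA, tRNA and, as reported for several human cell types, mRNA. In acRIP-seq, RNA fragments are pulled down with an antibody against ac4C (IP) and compared with the unselected fragments (input), and a region with more IP than input reads is listed as a peak. The size of a peak is its fold enrichment of IP over input, a ratio in which a low input count gives a large value.

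PANC-1 is a human line from a pancreatic ductal carcinoma. The shCtrl cells carried a control shRNA vector, empty by the labels while the study's supplement lists a non-targeting shRNA, and the shNAT10 cells an shRNA against NAT10, both brought in by lentivirus. RNA-seq was done on captured mRNA in 3 shCtrl and 3 shNAT10 libraries, and acRIP-seq on fragmented total RNA, with rRNA cDNA removed, in 3 IP and 3 input libraries of each group. The labels do not say whether the libraries came from separate cultures or whether a line was 1 clone. The 3 IP and 3 input libraries of a group gave 1 list of peaks, so the lists have no replicates, and the reads behind a peak are not in them. Intervals given here are 95% Wilson intervals for shares and 95% Newcombe intervals for differences of shares. They cover counting error only, because peaks on one gene and peaks listed under several genes are not independent.

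NAT10 stood at 31.6, 27.7 and 28.6 FPKM in the shCtrl libraries and at 7.92, 8.43 and 7.90 FPKM in the shNAT10 libraries, so the groups did not overlap, as their labels say. Keratins of ductal epithelium were abundant in every RNA-seq library, with KRT8 between 711 and 2009 FPKM and KRT19 between 159 and 373 FPKM. The FPKM values went back to between 15831720 and 23521762 reads on genes per library, and 97.6% to 97.7% of the values above 0 and below 300 reads lay within 0.02 of a whole read in each library. Read counts quoted for a gene are these recovered reads, as assigned to it in the table.

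Exon junctions inside the peaks are shown because most members joined exons. Each sequence below is coding sequence, read 5′ to 3′ from GENCODE v29 transcripts on GRCh38, that lies inside a recurrent peak of both lists. The capitals mark the 10 bases on either side of the exon junction, which are not adjacent in the genome. These genes were taken from those named by the rules for strong, numerous or marker peaks. The positions are chr13:46127684-46130853 on the minus strand for LCP1, chr12:9112172-9112416 on the minus strand for A2M, chr9:332439-334264 on the plus strand for DOCK8, chr4:155908975-155910064 on the plus strand for TDO2, chr1:198749510-198750531 on the plus strand for PTPRC, chr4:87976910-87977097 on the plus strand for SPP1, chr16:31371745-31372417 on the plus strand for ITGAX, chr11:47360001-47375672 on the minus strand for SPI1, chr10:88938203-88939546 on the minus strand for ACTA2 and chr13:37586889-37587861 on the minus strand for POSTN. The intron left out was 165 bases long in A2M, 3090 bases in LCP1 and 15592 bases in SPI1.
LCP1 exons 15 and 16: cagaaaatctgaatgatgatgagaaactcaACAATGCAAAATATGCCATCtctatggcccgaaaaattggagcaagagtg
A2M exons 3 and 4: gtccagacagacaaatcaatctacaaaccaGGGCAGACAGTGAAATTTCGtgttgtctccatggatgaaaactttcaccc
DOCK8 exons 10 and 11: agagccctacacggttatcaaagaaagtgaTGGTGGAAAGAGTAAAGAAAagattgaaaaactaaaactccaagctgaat
TDO2 exons 5 and 6: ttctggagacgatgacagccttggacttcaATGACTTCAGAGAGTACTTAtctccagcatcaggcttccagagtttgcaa
PTPRC exons 28 and 29: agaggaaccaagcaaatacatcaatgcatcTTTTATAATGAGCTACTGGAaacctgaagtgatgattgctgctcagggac
SPP1 exons 2 and 3: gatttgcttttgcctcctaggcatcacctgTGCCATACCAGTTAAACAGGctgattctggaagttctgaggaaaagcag
ITGAX exons 17 and 18: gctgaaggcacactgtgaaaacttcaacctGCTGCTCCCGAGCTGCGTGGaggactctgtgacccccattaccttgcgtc
SPI1 exons 2 and 3: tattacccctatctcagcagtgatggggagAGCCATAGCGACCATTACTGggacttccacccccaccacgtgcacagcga
ACTA2 exons 7 and 8: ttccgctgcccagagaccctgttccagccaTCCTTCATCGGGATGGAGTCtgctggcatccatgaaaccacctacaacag
POSTN exons 5 and 6: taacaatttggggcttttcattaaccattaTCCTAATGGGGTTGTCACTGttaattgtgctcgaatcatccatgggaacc

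Among protein-coding members, the overlapping pair with the highest lower fold enrichment lay on LCP1, which encodes the actin-bundling protein L-plastin of blood cells. LCP1 was listed at 0 in each of the 6 RNA-seq libraries, where 3 reads would be 0.0323 FPKM in the deepest and 0.0480 FPKM in the shallowest library. Its shCtrl peak at chr13:46126010-46153212 joined 12 blocks, 2995 bases in all, with a fold enrichment of 11800. In the shNAT10 list the same stretch was split into a single block of 1378 bases with a fold enrichment of 7370 and a peak of 17 blocks and 2217 bases with a fold enrichment of 598. The peaks listed on LCP1 covered 88.4% of its longest coding transcript in the shCtrl list and 87.7% in the shNAT10 list, so most of the spliced mRNA lay under peaks in both.

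A2M, the plasma protease inhibitor alpha-2-macroglobulin, followed. It had 7, 7 and 2 reads in the shCtrl libraries (0.0833, 0.0714 and 0.0176 FPKM) and 1, 14 and 0 reads in the shNAT10 libraries (0.0130, 0.149 and 0 FPKM), and the 2 groups overlapped. Its 7 recurrent shCtrl peaks reached a fold enrichment of 9680 and its 10 shNAT10 peaks 16400, the highest of all shNAT10 peaks. All peaks listed on A2M, recurrent or not, covered 82.3% and 75.9% of the transcript. The 11-block shCtrl peak of 1529 bases and the 14-block shNAT10 peak of 1620 bases were among the members with most blocks in each list.

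The next pairs by this measure were on genes of leukocytes. ARHGAP30, a GTPase-activating protein of blood cells, had 1, 3 and 2 reads in shCtrl and 0, 0 and 1 in shNAT10 libraries, and its strongest pair had fold enrichments of 5350 and 5220. RGS1, a regulator of G-protein signaling in lymphocytes, had 0, 1 and 0 and then 0, 2 and 0 reads, and its strongest peaks reached 4520 in the shCtrl and 4870 in the shNAT10 list. PTPN7, a tyrosine phosphatase of hematopoietic cells, had 0, 0 and 2 and then 1, 0 and 0 reads beside fold enrichments of up to 3210 and 5310. None of these 3 genes had more than 3 reads in a library.

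LPL, the lipoprotein lipase of fat and muscle capillaries, had 1 read in 1 shNAT10 library and 0 in the other 5. Its shCtrl peak with a fold enrichment of 14800 was the highest of the shCtrl list, a single block of 1431 bases, and its shNAT10 peak of 8 blocks and 3100 bases, the longest of all members, had 3150. MSR1, the scavenger receptor of macrophages, was listed at 0 in each of the 6 libraries and had 6 shCtrl and 5 shNAT10 recurrent peaks of up to 3970 and 3850. EVI2B, a membrane protein of myeloid cells, had 2, 0 and 0 and then 0, 0 and 1 reads and 1 recurrent peak in each list, at 3090 and 3800, which met in only 1 base. LPL and MSR1 were thus listed at or near 0 in both groups while their mRNAs were covered to between 52.5% and 91.0% by listed peaks.

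PTPRC, which encodes the pan-leukocyte antigen CD45, had 0, 0 and 0 reads in shCtrl and 1, 4 and 0 in shNAT10 libraries. Its 3 recurrent peaks in each list reached 2500 and 3560. SPP1, the secreted phosphoprotein osteopontin of macrophages and bone, had 1, 2 and 0 and then 0, 0 and 3 reads. Its recurrent peaks reached 3220 and 2490, and all peaks listed on it covered 89.2% and 91.7% of its transcript. DOCK8, a guanine nucleotide exchange factor of lymphocytes, was the best covered of these genes by RNA-seq, with 13, 5 and 7 and then 9, 4 and 1 reads, and its strongest pair had 3190 and 2760. For each of these 3 genes the RNA-seq values of the groups overlapped.

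Other strong pairs were on genes known from other tissues. TDO2, the tryptophan dioxygenase of liver, had 5, 4 and 4 and then 4, 1 and 4 reads and 1 recurrent peak in each list, at 4520 over 5 blocks and 2650 over 4 blocks. BGN, the matrix proteoglycan biglycan, had 4, 0 and 2 and then 2, 0 and 2 reads and peaks of up to 4790 and 2330. EGR2, a zinc finger transcription factor of Schwann cells, macrophages and T cells, had 0, 2 and 2 and then 0, 0 and 0 reads and peaks of up to 4030 and 4960. DDIT4L, an inhibitor of mTOR signaling, had 1 read in 1 shNAT10 library, 0 in the other 5, and peaks of up to 3770 and 2920. These 4 genes complete the 15 with the strongest pairs.

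**Figure D1:**
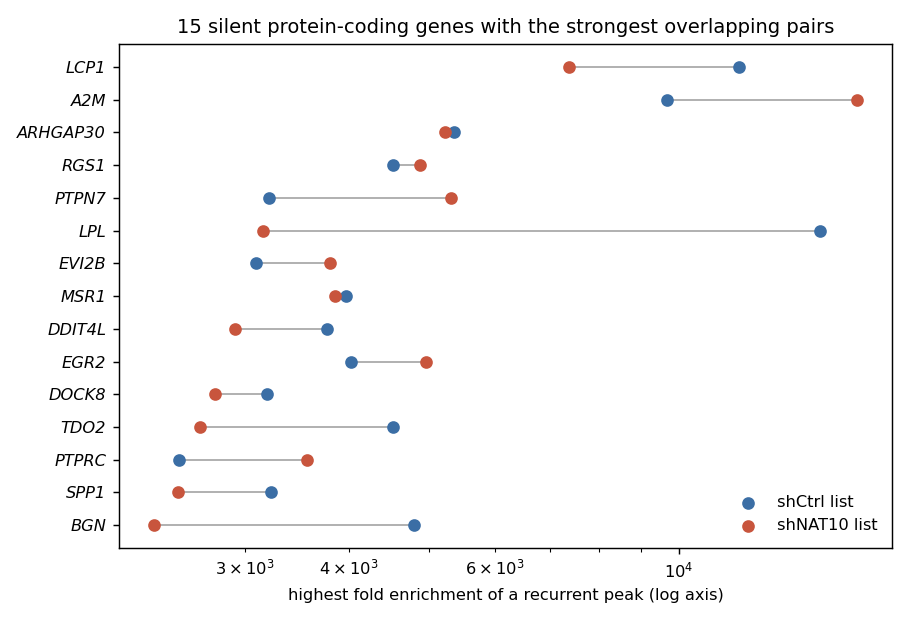
Highest fold enrichment of a recurrent peak in the shCtrl list (blue) and the shNAT10 list (red), on a log axis, for the 15 silent protein-coding genes whose overlapping pairs had the highest lower value. The lowest point is 2330, for BGN in the shNAT10 list. LPL has the widest gap (14800 and 3150) and ARHGAP30 one of the narrowest (5350 and 5220).

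Several genes held peak after peak along the mRNA. ITGAX, the integrin alpha X chain of macrophages and dendritic cells, had 9 recurrent peaks in each list, 6 of them spliced in each. All peaks listed on ITGAX covered 69.6% and 54.9% of its transcript, against 1, 7 and 6 reads in shCtrl and 0, 3 and 1 in shNAT10 libraries. CD36, a scavenger receptor for lipids, had 8 shCtrl and 9 shNAT10 peaks, and COL1A2, a chain of type I collagen, had 9 and 7. COL1A2 had 2, 0 and 1 and then 0, 0 and 1 reads, and a single shNAT10 peak joined 13 of its short exons. SPN, the sialoglycoprotein leukosialin, had 7 and 6 peaks, ITGAL, the integrin alpha L chain of LFA-1, had 6 and 5, and TMTC1, a protein of the endoplasmic reticulum, had 5 and 5. CHI3L1, a chitinase-like protein of macrophages and cartilage, was covered to 96.7% in both lists, with 0, 0 and 0 reads in shCtrl and 0, 1 and 2 in shNAT10 libraries. PLEK, pleckstrin of platelets and leukocytes, was covered to 85.4% and 83.3% with 1 read in 1 of the 6 libraries.

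Over all protein-coding genes with a recurrent peak, listed peaks covered a median of 22.1% of the longest coding transcript on 213 silent genes and 14.5% on 2081 genes expressed at a mean of at least 1 FPKM in both groups in the shCtrl list. In the shNAT10 list the medians were 20.7% over 218 silent genes and 13.4% over 2085 expressed genes. The quartiles of the silent genes, 11.1% to 34.1% and 9.85% to 33.4%, overlapped those of the expressed genes, 8.45% to 24.3% and 7.88% to 22.2%.

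Of the 276 genes with a recurrent peak, 102 were listed at 0 in each of the 6 RNA-seq libraries. A 0 in this table is not always a lack of RNA: EEF1G, a subunit of the translation elongation factor that every cell uses, was listed at 0 in all 6. Its exon bases were shared to 99.9% with another annotated gene, and how the counting treated reads on shared exons is not given in the sources used here. At least 50% of exon bases were shared with another gene, on either strand, in 73 of the 99 annotated genes listed at 0 and in 38 of the other 174. ZC3H11A (93.6%), PIK3R2 (87.2%) and BCKDHA (64.6%), picked with EEF1G after their values were seen, were further cases, and for such genes the table gives no usable level. Among the 15 genes with the strongest pairs the share was at most 30.1%, in EVI2B, and it was 0% in LCP1, LPL, MSR1, PTPRC and SPP1. The 174 had at least 1 read in some library, the median over all 276 was 2.50 reads in the 6 libraries together, and 5 genes had 50 or more. The highest value of any of them in a single library was 0.206 FPKM, for TYROBP in the third shCtrl library, which was 3 reads on a short transcript. By the limit of the rule, 0 of them could reach 1 FPKM in 3 libraries, and their levels were not tested between the groups. In bulk samples, fewer cells of a type and less RNA per cell cannot be told apart. The members nearest the limit were DNAJA4 (0.0768 and 0.0976 FPKM, means of shCtrl and shNAT10) and UCA1 (0.0981 and 0.0439), and the genes just outside were CCL20 (0.0763 and 0.10) and OAS2 (0.104 and 0.0325). Overlap had a similar edge: 37 of the 479 same-gene pairs shared only 1 base, EVI2B among them, and a further 5 overlapped by their spans but in no block. Starts were read as counted from 0, the convention in which inner block starts met exon starts. With at least 2 shared bases, an alternative chosen after seeing the data, 431 shCtrl and 443 shNAT10 peaks were left.

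As background to these counts, 25.9% of all shCtrl peaks and 27.7% of all shNAT10 peaks overlapped a peak of the other list. On silent genes the shares were 27.9% (25.7% to 30.1%, 457 of 1640 peaks) and 29.4% (27.2% to 31.7%, 463 of 1574), and on expressed genes 25.7% (25% to 26.5%) and 27.6% (26.8% to 28.4%). The rule used this overlap, so nothing is read from the difference. Silent genes made up 36785 of the 58302 genes of the table, and 0.750% of them had a recurrent peak. For silent protein-coding genes the share was 3.42%, 225 of 6575. With a peak in both lists on 434 silent genes, 248 had peaks that met at the same place in both.

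The recurrent peaks fell into classes that differed in fold enrichment. The 14 PCDHG genes, clustered protocadherins of the gamma family that share their constant 3′ exons, took 42 peaks in each list, which lay at only 3 places of the genome. All 42 were linked by position or sequence to PCDHGC3, whose mean was 5.02 FPKM in shCtrl and 8.76 FPKM in shNAT10 cells, and their median fold enrichments were 101 and 128. Genes with readthrough transcripts, which join the exons of neighboring genes, took 83 peaks on 72 genes and 88 peaks on 74 genes, not counting PCDHGB5, which has such a transcript but is among the PCDHG genes, with medians of 30.2 and 27.1. Examples, chosen after their values were seen, are ARPC4-TTLL3, with 1 shCtrl and 2 shNAT10 peaks linked to ARPC4 (means of 14.1 and 10 FPKM), and ATP6V1G2-DDX39B, with 1 and 2 linked to DDX39B (26.3 and 18.6 FPKM). A further 31 and 30 peaks shared an exon or sequence with an expressed gene, among them the pseudogenes RPL12P8, RPL12P16 and RPL12P38, also chosen after their values were seen, whose 4 peaks in each list were linked to RPL12 (239 and 193 FPKM). The remaining 277 and 281 peaks lay on 132 and 135 protein-coding genes, and their medians were 648 and 883. A last 24 and 22 peaks were on other gene types, with medians of 548 and 529.

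Over all classes, 135 of 457 shCtrl members (29.5%, 25.5% to 33.9%) and 138 of 463 shNAT10 members (29.8%, 25.8% to 34.1%) overlapped an exon of another gene with a mean of at least 1 FPKM in either group, on either strand, or matched a transcript of one at 90% identity over 80% of their length. On recurrent peaks of expressed genes these shares were 7.35% and 7.19%, lower by 22.2 percentage points (18.1 to 26.6) and 22.6 points (18.5 to 27). An overlap of any length counted, and it was on the same strand in 22.3% and 23.1% of members. Where bases were shared, position or sequence alone does not assign the reads to the silent gene. The median fold enrichment of the linked members was 77.3 in both lists, and that of the other 322 and 325 members was 586 and 759. None of the protein-coding genes described above for strong or numerous peaks, and none of the marker genes below, had a linked peak. Only another gene with a mean of at least 1 FPKM counted here. A gene without a linked peak may still share exon bases with another gene, as CD68 did (85.8%).

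The strand in the lists is the strand of the gene: all 16875 shCtrl and all 15794 shNAT10 peaks on annotated genes carried it. Of 33 shCtrl and 34 shNAT10 members that shared bases with a peak of a gene on the opposite strand, 12 in each list had exactly the same fold enrichment and p-value as that peak. Over all peaks this held for 243 of 1007 in the shCtrl and 181 of 874 in the shNAT10 list. A2M and its antisense gene A2M-AS1, chosen after their values were seen, are a case, with overlapping peaks of 342 on both strands in the shCtrl list and 226 on both in the shNAT10 list. For such peaks the sense and antisense gene cannot be told apart, although the libraries were strand-specific by their labels. On the same strand, 150 shCtrl and 153 shNAT10 members shared bases with a peak of another gene. Of these, 61 and 60 had the same fold enrichment and p-value as that peak, against 242 of 820 and 256 of 850 over all peaks.

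Members had higher fold enrichments than recurrent peaks on expressed genes, and so did other peaks on genes of low FPKM. The median of silent recurrent peaks was 364 (quartiles 77.3 and 1070) in the shCtrl and 372 (77.3 and 1410) in the shNAT10 list, against 25.4 (8.37 and 103) and 22.7 (7.64 and 92.8) on expressed genes. Peaks on silent genes that were not recurrent had medians of 267 and 216. Recurrent peaks had medians of 295 and 218 on genes at 0.1 to 1 FPKM and of 233 and 212 at 1 to 5 FPKM. On genes at 100 FPKM or more the medians were 5.53 and 5.28. Genes with a read in some library but under 0.1 FPKM had medians of 421 and 452 and genes at 0 in all 6 libraries 125 and 150. In that last group 34.7% and 38.3% of the peaks matched a transcript of an expressed gene, against 21.4% and 22.5% of all members. Of the 100 same-gene pairs with the highest lower fold enrichment, 42 were on silent genes, 20 on expressed genes and 38 on genes in between, while of all 4609 same-gene pairs 479 were on silent and 3709 on expressed genes. FPKM and fold enrichment thus moved in opposite directions among genes with reads, and the part of low input counts in this was not tested.

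**Figure D2:**
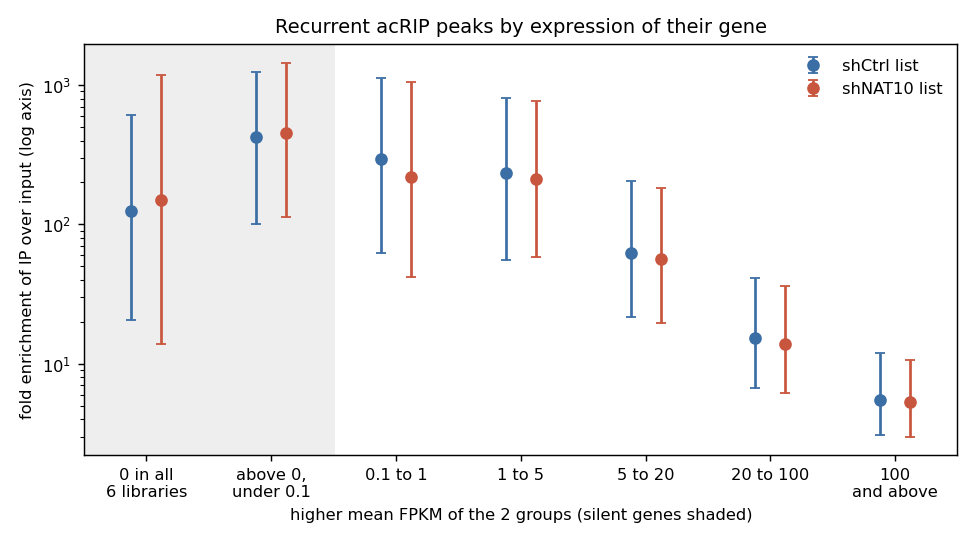
Fold enrichment of recurrent peaks (points, median, with bars from the first to the third quartile, log axis) by the higher group mean FPKM of their gene, for the shCtrl list (blue) and the shNAT10 list (red), with silent genes shaded. Medians lie at 421 and 452 in genes above 0 and under 0.1 FPKM and at 5.53 and 5.28 in genes at 100 FPKM and above.

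The 479 pairs of overlapping peaks on the same silent gene shared a median of 42.4% of their joint bases (quartiles 21.7% and 65.4%), and 12 pairs had the same start, end and blocks in both lists. POSTN gives one such pair, chr13:37586786-37587978, with fold enrichments of 1650 and 1850. On expressed genes 3709 pairs shared a median of 37.7% (17.6% and 60.1%), and 92 were identical. The shNAT10 value was higher in 254 silent pairs and lower in 212, with a median log2 ratio of 0.17 and quartiles of -1.54 and 1.55. On expressed genes it was higher in 1792 pairs and lower in 1912, with a median of -0.08 and quartiles of -1.61 and 1.32. Pairs thus differed up or down by several fold, with no replicate to show how much of this is spread between libraries. Across the silent pairs, the log2 fold enrichments had a Pearson r of 0.603 and a Spearman rho of 0.505, and without the linked peaks 0.354 and 0.239 over 347 pairs. Across the expressed pairs they were 0.549 and 0.551, and without the linked peaks 0.542 and 0.544 over 3442 pairs. These correlations are across pairs that share genes and are given as a description.

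Members were spliced more often than recurrent peaks on expressed genes under the rule, but not clearly so once genes with shared exons were left out. A peak of at least 2 blocks was called spliced, and 255 of 457 shCtrl members (55.8%, 51.2% to 60.3%) and 256 of 463 shNAT10 members (55.3%, 50.7% to 59.8%) were. On expressed genes 47.2% and 47.1% were, a difference of 8.61 percentage points (3.74 to 13.4) and 8.23 points (3.39 to 13.0). Within protein-coding genes the difference was 9.60 points (4.42 to 14.6) and 9.10 points (3.98 to 14.1). Where 50% or more of each peak had to be shared it was 4.92 points (-1.93 to 11.6) and 3.76 points (-3.22 to 10.6), and without linked peaks 6.07 points (0.352 to 11.7) and 5.44 points (-0.258 to 11.1), so the interval held 0 in both lists under the first of these and in the shNAT10 list under the second. Without genes that share at least 50% of their exon bases with another gene, it was 4.06 points (-1.55 to 9.63) and 4.26 points (-1.33 to 9.81), and both intervals held 0. Peaks that were not recurrent were spliced in 41.2% and 42.9% of cases on silent genes and in 42.5% and 42.4% on expressed genes. The rule counted overlap over the span, gaps between blocks included, so nothing is read from their difference to the recurrent peaks.

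Members of 5 or more blocks were 36 of the shCtrl and 30 of the shNAT10 peaks. The most blocks in a member were 12 and 17, both on LCP1, and in a recurrent peak on an expressed gene 15 and 16. Behind LCP1 and A2M, the shCtrl members with most blocks were on SLC43A3, a solute carrier, with 9, on PECAM1, the endothelial adhesion molecule CD31, with 9, and on LCP2, an adaptor of T cell receptor signaling, with 8. In the shNAT10 list they were on COL1A2 with 13, on A2M again with 9 and on MSR1 and LPL with 8 each. The peaks on readthrough genes were spliced in 80.7% and 79.5% of cases and those on PCDHG genes in 33.3% in both lists. On the protein-coding genes outside these classes and with no link to an expressed gene, 55.2% and 54.1% were spliced.

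Inner block ends followed the annotation. Both ends of 540 of 545 gaps between blocks in shCtrl members (99.1%, 97.9% to 99.6%) and 526 of 531 in shNAT10 members (99.1%, 97.8% to 99.6%) lay at annotated exon ends of the gene, and 475 and 468 of these gaps matched 1 annotated intron. Without linked peaks the share was 100% in both lists. On expressed genes the shares of gaps at exon ends were 99.8% and 99.7%. How the blocks were made is not given in the sources used here, so a gap does not by itself show that reads crossed the junction.

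Among members with a midpoint on the longest coding transcript, most lay in the CDS, as did most such peaks of expressed genes. Of 341 shCtrl members with a midpoint on the longest coding transcript of their gene, 196 were in the CDS (57.5%, 52.2% to 62.6%), 134 in the 3′ UTR (39.3%, 34.3% to 44.6%) and 11 in the 5′ UTR. Of 352 shNAT10 members, 198 were in the CDS (56.2%, 51.0% to 61.3%), 143 in the 3′ UTR (40.6%, 35.6% to 45.8%) and 11 in the 5′ UTR. The CDS took up 46.5% and 45.2% of the length of the same transcripts and the 5′ UTR 7.43% and 7.70%. On expressed genes 59.1% and 59.5% of midpoints were in the CDS, a difference of -1.63 points (-7.21 to 3.81) and -3.29 points (-8.80 to 2.10), and both intervals held 0. The midpoints of 59 members in each list lay off that transcript, and 57 and 52 members were on genes with no coding transcript.

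Between 10% and 80% of the length, each step of 10% held 8.52% to 15.3% of the members and 9.51% to 12.8% of the peaks on expressed genes. The first 10% held 6.45% and 4.83% of silent and 6.37% and 6.77% of expressed peaks. The last 10% held 7.33% and 7.95% of silent and 4.01% and 3.86% of expressed peaks, and 4.55% and 5.33% of the silent ones once the PCDHG genes were left out.

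Protein-coding genes held 398 of the 457 shCtrl members (87.1%, 83.7% to 89.9%) and 409 of the 463 shNAT10 members (88.3%, 85.1% to 91.0%), against 97.1% and 97.0% of recurrent peaks on expressed genes. Of the other types, antisense genes had 16 and 14 peaks, lincRNAs 13 and 12 and processed transcripts 13 and 14. The strongest non-coding pairs were on AC079466.1 (4340 and 2220), AL713998.1 (2000 and 5600), MIR155HG (1900 and 3830), LINC01010 (1130 and 1420) and AC006967.3 (1060 and 2010). MIR155HG, the host transcript of miR-155 in activated leukocytes, was listed at 0 in each of the 6 libraries and had 2 recurrent peaks in each list. TRAC, the constant segment of the T cell receptor alpha chain and named here after its values were seen, had 2 recurrent peaks in each list, of up to 292 and 1250.

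Marker lists for 17 cell types were set beside the silent genes. The myeloid list had 24 silent genes, of which 6 had a recurrent peak, CD68, CSF1R, ITGAX, SPI1, TYROBP and CYBB, and 17 had no peak at all. The list of fibroblasts and smooth muscle had 12 silent genes, of which 5 had a recurrent peak, COL1A2, ACTA2, MYH11, POSTN and C7, and 4 more, DCN, LUM, PDGFRB and COL14A1, a peak in no matching place or in 1 list. The background share was 3.42% of silent protein-coding genes. These lists were drawn up with results of these data known, so their counts are a description. In the fat cell list FABP4 and LPL had recurrent peaks among 9 silent genes. One gene each had them in the lists of T and NK cells (IL7R of 24), endothelial cells (PECAM1 of 14) and glial cells (SLC1A3 of 15).

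The other 11 lists had no recurrent peak on a silent gene: B and plasma cells (18 silent genes), red cells and platelets (21), liver cells (18), neurons (15), skeletal and heart muscle (20), kidney epithelium (10), lung epithelium (8), gut epithelium (13), pancreas acinar and islet cells (16), germ cells of the testis (20) and skin keratinocytes (15). Peaks that were not recurrent lay on silent genes in nearly all the lists, with 4 each in the glial and the fibroblast list, 3 each in the T and NK, liver, neuron, endothelial and skin lists, 2 each in the red cell, muscle, gut and pancreas lists and 1 each in the myeloid, lung and testis lists. The B cell, kidney and fat cell lists had 0. The summed FPKM of the myeloid list was 7.07 to 9.60 in shCtrl and 7.79 to 8.94 in shNAT10 libraries, with 3 of its 30 genes above 1 FPKM and 11 at 0 in all 6 libraries. For T and NK cells the sum was 0.328 to 0.739 and 0.544 to 0.657 over 25 genes, of which 13 were at 0. For fibroblasts and smooth muscle it was 72.1 to 90.6 and 62.9 to 70.1, with 5 of 18 genes expressed. The part that RNA of other cells might have in these peaks was not tested, and the IP and input reads that would bear on it are not in the lists.

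Of the myeloid markers, CSF1R, the receptor for macrophage colony-stimulating factor, had 1, 0 and 1 reads in shCtrl and 1, 0 and 2 in shNAT10 libraries and 4 recurrent peaks in each list, of up to 403 and 1230. SPI1, the transcription factor PU.1, had 2, 1 and 1 and then 0, 0 and 0 reads and 1 peak in each list, at 5030 and 1340, joining 4 and 3 blocks. Its shCtrl values lay above its shNAT10 values, at no more than 2 reads, and this was not tested. TYROBP, the signaling adaptor DAP12, had 0, 1 and 3 and then 0, 0 and 1 reads and peaks of 2380 and 2030. CYBB, the catalytic chain of the phagocyte NADPH oxidase, had 3, 3 and 1 and then 4, 6 and 4 reads and peaks of 476 and 1990 in its 3′ UTR, and here the shCtrl values lay below the shNAT10 values. CD68, a lysosomal glycoprotein of macrophages, had 2, 1 and 1 and then 2, 0 and 2 reads, and its peaks of 32.2 and 33.5 were the weakest of the 6. CD68 shares 85.8% of its exon bases with another annotated gene, so its listed level is uncertain.

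Of the stromal markers, ACTA2, the smooth muscle actin, had 1, 0 and 1 and then 1, 0 and 1 reads and 3 recurrent peaks in each list, the strongest at 3880 and 759 on the same start and end. Actins are near-identical proteins, and no ACTA2 peak matched an expressed transcript at 90% identity over 80% of its length. That limit passes over shorter or less alike stretches. Whether reads of other actins were assigned to ACTA2 was not tested. POSTN, the matrix protein periostin, had 1 read in each shCtrl library and 0 in each shNAT10 library, and peaks of up to 1650 and 1850. MYH11, the smooth muscle myosin heavy chain, had 5, 9 and 4 and then 8, 5 and 10 reads and 1 peak in each list, at 580 and 244. C7, a complement component, had peaks of 263 and 17.4. PECAM1 had peaks of 1880 and 17.4, IL7R, the interleukin 7 receptor, 353 and 1270, and SLC1A3, the glutamate transporter of astrocytes, up to 2280 and 435.

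The letters of the members were also compared. In the central 180 bases of a peak, 4 consecutive repeats of CNN (a C followed by any 2 bases, read on the strand of the gene) occurred in 56.6% of 403 shCtrl members (51.7% to 61.3%) and 56.7% of 413 shNAT10 members (51.8% to 61.4%). On expressed genes the shares were 45.5% (43.8% to 47.3%) and 44.5% (42.8% to 46.3%), and over all peaks 46.2% and 46.3%. Without linked peaks the members had it in 50.8% (45.2% to 56.4%) and 51.8% (46.2% to 57.4%). The median GC content of that window was 51.1% and 50.6% in members, 50% and 48.3% without linked peaks, and 47.2% on expressed genes in both lists. The median share of C was 25.6% and 25% in members, 23.9% and 23.3% without linked peaks and 22.8% on expressed genes in both lists. A match to the repeat is a description of the letters and not of an acetylated site.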

How the data were processed

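PANC-1 cells were profiled by RNA-seq and by acRIP-seq, in 18 samples. The authors deposited 1 table of FPKM values per gene, with a column for each of 6 RNA-seq libraries, and 1 peak list per group, each made from 3 IP and 3 input libraries. Each deposited peak carries blocks in BED style, a score, a p-value and a fold enrichment of IP over input. RNA-seq used a stranded mRNA kit. The submitters' processing notes name HISAT2 2, HTSeq 0.11.0 and DESeq2 1.22.2 and the build GRCh38, and the peak caller and annotation behind the lists are not given in the sources used here. Depth per acRIP library is unknown. The RNA-seq libraries held 15831720 to 23521762 reads on genes, recovered from the FPKM steps.

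Peaks were overlapped by span and strand in Python 3.11.15 with NumPy 2.4.6, pandas 2.3.3 and SciPy 1.17.1, and figures were drawn with matplotlib 3.10.9. Position, gene type and sequence came from GENCODE 29, and sequence matches from BLAST 2.17.0 (90% identity over 80% of the length). Expressed means a mean of at least 1 FPKM in both groups, or in either group for a linked gene. The overlap step was tested on 5000 simulated peaks, where 200 of 200 overlaps put in were found with 0 false ones. No test was run between groups, since each had 1 list. Exon bases shared with other genes were computed from the same annotation. The members, marker lists and rules were chosen with earlier results of these data known. Named protein-coding genes are those of the 15 pairs with the highest lower fold enrichment, the 10 genes with most peaks, the 5 peaks per list with most blocks, the marker genes with a recurrent peak and the 5 longest peaks, and non-coding genes are the 5 by the first rule. Alternatives changed the overlap, the FPKM limit, the peaks kept, the transcript, the match and the libraries. The number of per-sample columns left unused was 0.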

Additional observations from a re-analysis of the deposited data

How the results depend on the processing

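No paired analysis was possible because each group had 1 peak list and no result came from a test. Of 344 comparisons with an alternative, 270 stayed near the value in the report: counts and medians within 1.5 times of it, shares within its interval, and differences on the same side of 0 by their interval. This includes all that left out 1 RNA-seq library. None changed sign. Where 50% or more of each peak had to be shared there were 234 shCtrl and 224 shNAT10 members on 151 and 150 genes, the differences in spliced share were 4.92 and 3.76 points, block ends were at exon ends in 99.6% in shCtrl and 26.5% of shCtrl peaks matched an expressed gene. In the top 50% of peaks by fold enrichment, 14.9% and 16.0% matched and the medians of fold enrichment were 558 and 679. In the 50% with the lowest p-values there were 221 and 222 members on 127 and 133 genes, with 93.2% and 94.6% protein-coding, 99.7% of shCtrl block ends at exon ends and medians of 679 and 892. At a mean FPKM under 0.5 there were 396 and 404 genes, 82.4% and 83.6% protein-coding and 14.6% and 15.2% matching. At 0 in all 6 libraries there were 118 and 115 members on 94 and 93 genes, 62.7% and 62.6% spliced, 79.7% and 81.7% protein-coding, 97.7% of shCtrl block ends at exon ends, 34.7% and 38.3% matching and medians of 125 and 150. Without peaks over an exon of an expressed gene on either strand, 90.1% of shCtrl members were protein-coding, 100% and 100% of block ends were at exon ends, 3.01% and 3.27% matched, the medians were 582 and 744 and the shNAT10 difference in spliced share was 5.56 points. Without peaks matching an expressed gene, the shNAT10 median was 679. At 80% identity over 50% of the length, 26.7% and 27% matched. The 4 alternatives that follow were chosen after seeing the data. With at least 2 shared bases there were 431 and 443 members, and each result stayed near its value. Without genes that share at least 50% of their exon bases with another gene there were 159 and 161 genes, 91.3% and 91.7% protein-coding, 100% and 100% of block ends at exon ends, 12.3% and 12.2% matching, medians of 569 and 654 and differences in spliced share of 4.06 and 4.26 points. Without all linked peaks there were 168 and 170 genes, 91.6% and 92.3% protein-coding, 100% and 100% of block ends at exon ends, medians of 586 and 759 and a shNAT10 difference of 5.44 points, and with 1 peak per distinct span 17.8% and 18.6% matched. Where a setting kept fewer peaks or genes its counts are lower by construction. The same holds for the higher medians in the top 50% by fold enrichment and the higher matching share at the looser match. It also holds for the lower matching share without peaks over an exon of an expressed gene. The cause of the other changes was not tested. The lists hold no reads, so the depth behind a peak is unknown, and 1 list per group leaves the spread between libraries unmeasured.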
